A study of Mus musculus with 24 samples.

Results

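To examine what extracellular CIRP adds to pulmonary fibroblasts that also receive TGF-β1, the mRNA of wild type (WT) cells treated with rmCIRP plus rmTGF-β1 was compared with that of WT cells treated with rmTGF-β1 alone. Each condition had 3 libraries, so the comparison rests on 6 of the 24 libraries of the series, and 16258 genes had enough counts to be tested. The fibroblasts were isolated from pooled lungs (3 to 4 per pool) of C57BL/6 mice aged 4 to 8 weeks, expanded in serum, moved to reduced-serum medium at passages 3 to 6 and lysed 24 h after treatment. rmTGF-β1, the recombinant mouse growth factor, was given at 2 ng/ml in both conditions. rmCIRP, recombinant mouse CIRP, was given at 1 µg/ml in the first. The rest of the series was WT cells in PBS or in rmCIRP alone, and the same 4 treatments in cells labelled TLR4-/- on the C57BL/6 background. The 3 libraries of a condition are described as separate samples with repeats. As lungs were pooled, these libraries do not stand for single animals. Whether they came from separate pools or cultures is not given in the sources used here. The p-values thus measure the spread between libraries of a condition, estimated over all 24 libraries, and that spread may be technical.

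CIRP (cold-inducible RNA-binding protein) is an RNA chaperone of the nucleus that stressed cells release, and outside the cell it acts as a danger signal that binds the TLR4-MD2 receptor. TLR4 signals through the adaptor MyD88 to the transcription factor NF-κB, which drives cytokine and chemokine genes, and through the adaptor TRIF to interferon regulatory factors, which drive interferon-stimulated genes. TGF-β1 signals through SMAD proteins and turns lung fibroblasts towards myofibroblasts, contractile cells rich in smooth muscle actin that lay down collagen, elastin and other matrix.

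Values are normalized counts, which are read counts per gene divided by a library size factor. A log2 change (log2 fold change) is that of rmCIRP plus rmTGF-β1 over rmTGF-β1 alone unless another contrast is named, and it is given with its standard error (SE). A gene was said to rise or fall where edgeR's quasi-likelihood test gave a Benjamini-Hochberg adjusted p under 0.1 over all genes tested. The 6 libraries held 29853346 to 39664606 reads on genes. Replicate libraries of a condition differed by more than counting error, with a chi-square of 2.52 to 4.72 per degree of freedom, and none was a copy of another.

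Adding rmCIRP to rmTGF-β1 changed 6859 of the 16258 genes (42.2%). A rise was called for 3337 genes (20.5%) and a fall for 3522 (21.7%), and the median log2 fold change of all genes was -0.01. Many changes were small, as 1413 of the rises and 1359 of the falls were under 0.25 on the log2 scale, and the medians were 0.31 over the risen and -0.31 over the fallen genes. Large changes were mostly rises. A log2 fold change of 1 or more was reached by 666 risen genes (4.1%) and 278 fallen genes (1.71%), and one of at least 4 by 90 risen genes against 3 fallen genes. In 57 of the risen genes, every rmTGF-β1 library held at most 3 counts, so that for these a fold change is given only as a lower bound against 3 counts per library. As the libraries are bulk samples, fewer cells of a type and less RNA per cell cannot be told apart.

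**Figure D1:**
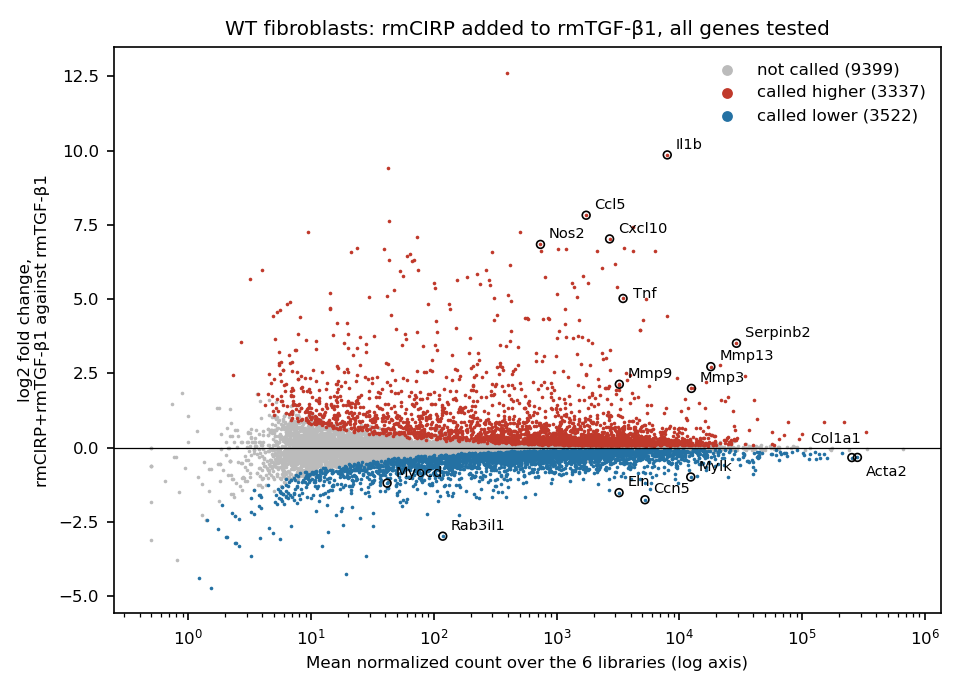
Each point is a gene tested, with the mean normalized count over the 6 libraries on a log axis and the log2 fold change of rmCIRP plus rmTGF-β1 over rmTGF-β1 alone in WT cells on the vertical axis; coloured points passed the adjusted p of 0.1. The 90 risen genes at 4 or above lie far above the fallen genes, of which 37 lie at -2 or below.

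The 15 largest rises were taken among genes that averaged 50 or more normalized counts and did not overlap between groups. They were in cytokine, chemokine and interferon-response genes and in Nos2. Il12b, which encodes a subunit of interleukin-12 and interleukin-23, had no count in any rmTGF-β1 library and normalized counts of 786, 759 and 812 in the 3 rmCIRP plus rmTGF-β1 libraries, a rise of at least 275-fold. Il1b, encoding interleukin-1β, went from 21.2, 10 and 19.4 to 16238, 14685 and 16777, a log2 change of 9.85 (SE 0.16, adjusted p = 6.0e-22). Il1a, its relative interleukin-1α, went from 50.4, 50 and 43.1 to 8206, 7745 and 8903, a log2 change of 7.43 (SE 0.21, adjusted p = 2.0e-17). By that choice the groups did not overlap in any of the 15. Ccl5, a chemokine for T cells and monocytes, rose from 16.1, 12 and 16.9 to 3393, 3291 and 3706 normalized counts (log2 change 7.82, SE 0.16, adjusted p = 5.7e-20). Cxcl10, an interferon-induced T cell chemokine, rose from 31.3, 39 and 50.7 to 4863, 4892 and 6320 (log2 change 7.02, SE 0.44, adjusted p = 2.3e-11). Nos2, the inducible nitric oxide synthase, rose from 11.1, 15 and 11.8 to 1381, 1367 and 1641 (log2 change 6.84, SE 0.18, adjusted p = 4.7e-18). The rise of each was far larger than the spread between its libraries. The remaining members were the guanylate-binding protein Gbp5, the interferon-inducible genes Ifi206, Ifit1, Ifit3, Ifit3b, Cmpk2, Rsad2 and Oasl1, and the neutrophil chemokine Cxcl2. Ifi206 had at most 3 counts in each rmTGF-β1 library and rose at least 50.9-fold, and the others had log2 fold changes between 6.61 in Ifit1 and 7.27 in Gbp5.

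The promoters of these 15 genes were searched for a κB site, the NF-κB motif, since NF-κB is the factor best known downstream of TLR4. RefSeq promoters (GRCm38.p6, 250 bases before to 50 after the gene start) were at hand for 13 of them, and 4 (30.8%) held the motif on either strand, against 9.55% of all 27025 promoters. Of the 12 promoters available for the 15 largest falls, 3 (25.0%) held it as well. The following stretches around the gene starts are shown because they belong to risen genes named above, with the κB motif in capitals, 5′ to 3′ on the gene's strand.
Gbp5, chr3:142496837-142496886, plus strand: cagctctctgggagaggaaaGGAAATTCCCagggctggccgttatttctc
Cxcl2, chr5:90903782-90903832, plus strand: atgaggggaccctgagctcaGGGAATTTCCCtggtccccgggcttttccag
Cxcl10, chr5:92348963-92349068, minus strand: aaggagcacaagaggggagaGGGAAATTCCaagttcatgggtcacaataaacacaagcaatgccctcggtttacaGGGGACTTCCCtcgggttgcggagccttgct
In Cxcl2 and in the second stretch of Cxcl10 the capitals cover overlapping matches, and Oasl1 was the remaining gene with the motif. Such a match is a description of the letters in the window and does not show that a factor binds there.

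All 43 interferon-stimulated genes tested rose (against 20.5% of all genes), with a median log2 fold change of 4.36 and a range from 0.70 in Isg20 to 7.27 in Gbp5. The GTPase-family gene Mx1 rose by 6.60 (SE 0.37, adjusted p = 3.4e-12). The transcription factors that carry the interferon signal rose too, among them Stat2 by 3.19 (SE 0.20, adjusted p = 1.9e-11) and Irf7 by 5.06 (SE 0.36, adjusted p = 2.2e-10). Ifitm3, a membrane protein that blocks viral entry, rose least but for Isg20, from 8187, 7547 and 8269 to 15393, 14374 and 15881 normalized counts, and its groups did not overlap.

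Of the cytokine genes, 25 of 30 tested rose (83.3%, against 20.5% of all genes) and the other 5 did not pass the test (median log2 change 1.60), and of the chemokine genes 21 of 27 rose (77.8%) and 2 fell (median 2.23). Both medians stay the same when genes with 3 counts or fewer in each rmTGF-β1 library are set to their lower bound. Tnf went from 217, 180.0 and 222 to 6238, 6658 and 7329 normalized counts, a log2 change of 5.02 (SE 0.12, adjusted p = 1.8e-18). Il6 was already expressed under rmTGF-β1, at 13557, 10214 and 10905, and rose to 37203, 36208 and 40910, a log2 change of 1.72 (SE 0.23, adjusted p = 5.3e-06). The growth factor Csf3, which drives neutrophil production, rose by 3.41 (SE 0.12, adjusted p = 1.3e-15). Among genes that dampen inflammation, Il1rn, encoding the interleukin-1 receptor antagonist, rose by 3.28 (SE 0.16, adjusted p = 1.9e-13). Csf1, the macrophage growth factor, and Tnfsf13b, encoding the B cell factor BAFF, gave log2 fold changes of -0.01 (adjusted p = 0.9) and -0.04 (adjusted p = 0.89). For Csf1 the libraries of both groups overlapped in range, from 111183, 122945 and 116357 under rmTGF-β1 to 111024, 121331 and 115997 with rmCIRP.

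Among the chemokines, the neutrophil attractant Cxcl1 rose from 637, 474 and 603 to 8834, 8651 and 9437 normalized counts (log2 change 3.97, SE 0.41, adjusted p = 7.9e-08). Ccl2, the monocyte attractant, rose from 12109, 10176 and 10509 to 58698, 56221 and 58622 (log2 change 2.40, SE 0.18, adjusted p = 4.9e-10). The fallen chemokines were Cxcl14, with a log2 change of -0.60 (SE 0.10, adjusted p = 6.5e-05), and Cxcl12, the homing factor that stromal cells make constitutively, at -0.38 (SE 0.08, adjusted p = 9.6e-04). Both thus went against the direction of most of the list, in which 4 members did not pass the test.

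In the receptor complex itself, Tlr4 stood at 671, 649.9 and 629.7 and 689, 704 and 643 normalized counts and Ly96, which encodes MD2, at 253, 281 and 240.0 and 281, 270.4 and 283, with log2 fold changes of 0.06 (adjusted p = 0.48) and 0.11 (adjusted p = 0.35). The libraries of the groups overlapped for Tlr4. Cd14, the co-receptor that hands ligands to TLR4, rose by 1.95 (SE 0.11, adjusted p = 6.0e-12), and the adaptor Myd88 by 0.42 (SE 0.05, adjusted p = 2.7e-06). Of the 37 genes of the TLR4 complex, its adaptors and kinases, 16 rose (43.2%, against 20.5% of all genes) and 6 fell (16.2%, against 21.7%). The largest rise in that list was Tlr3, the receptor for double-stranded RNA, at 2.00 (SE 0.13, adjusted p = 5.3e-11). The largest fall was Tlr5, the flagellin receptor, at -1.05 (SE 0.37, adjusted p = 0.032). Irak3, a kinase-like inhibitor of the pathway, rose by 1.04 (SE 0.12, adjusted p = 3.3e-07).

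NF-κB subunits and their feedback inhibitors rose in 25 of 33 tested members (75.8%, against 20.5% of all genes), with a median log2 fold change of 0.62, and fell in 2. Nfkbia, encoding IκBα, which holds NF-κB in the cytoplasm, rose by 1.44 (SE 0.10, adjusted p = 1.1e-10), and Tnfaip3, encoding the deubiquitinase A20, by 2.30 (SE 0.16, adjusted p = 1.1e-10). The suppressors of cytokine signalling Socs1 and Socs3 rose by 1.39 (SE 0.14, adjusted p = 4.5e-08) and 1.68 (SE 0.12, adjusted p = 2.8e-10). Dusp1, a phosphatase that switches off p38 and JNK, fell, with a log2 change of -0.83 (SE 0.08, adjusted p = 6.7e-08). MHC and antigen-processing genes rose in 23 of 28 tested members (82.1%, against 20.5% of all genes) and fell in 2 (7.14%, against 21.7%). Cd274, encoding PD-L1, led that list at 4.18 (SE 0.20, adjusted p = 1.5e-13), and B2m, the light chain of MHC class I, rose by 0.46 (SE 0.04, adjusted p = 1.5e-08).

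Of the inflammatory enzymes, 16 of 26 tested rose (61.5%, against 20.5% of all genes) and 5 fell (19.2%, against 21.7%). Ptgs2, the inducible cyclooxygenase, rose by 0.85 (SE 0.13, adjusted p = 1.4e-05), whereas Alox5, the enzyme that starts leukotriene synthesis, fell from 92.8, 73 and 93.8 to 29.6, 25.5 and 21.1 normalized counts (log2 change -1.77, SE 0.16, adjusted p = 9.4e-09), with no overlap. Acute-phase and complement genes were split, with 7 of 22 tested rising (31.8%) and 6 falling (27.3%), nearer to the shares of all genes. Lcn2, encoding an iron-sequestering protein, and Saa3, a serum amyloid, rose by 1.90 (SE 0.25, adjusted p = 3.3e-06) and 1.58 (SE 0.23, adjusted p = 1.1e-05), while the anaphylatoxin receptor C3ar1 fell, with a log2 change of -0.61 (SE 0.09, adjusted p = 2.8e-05).

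**Figure D2:**
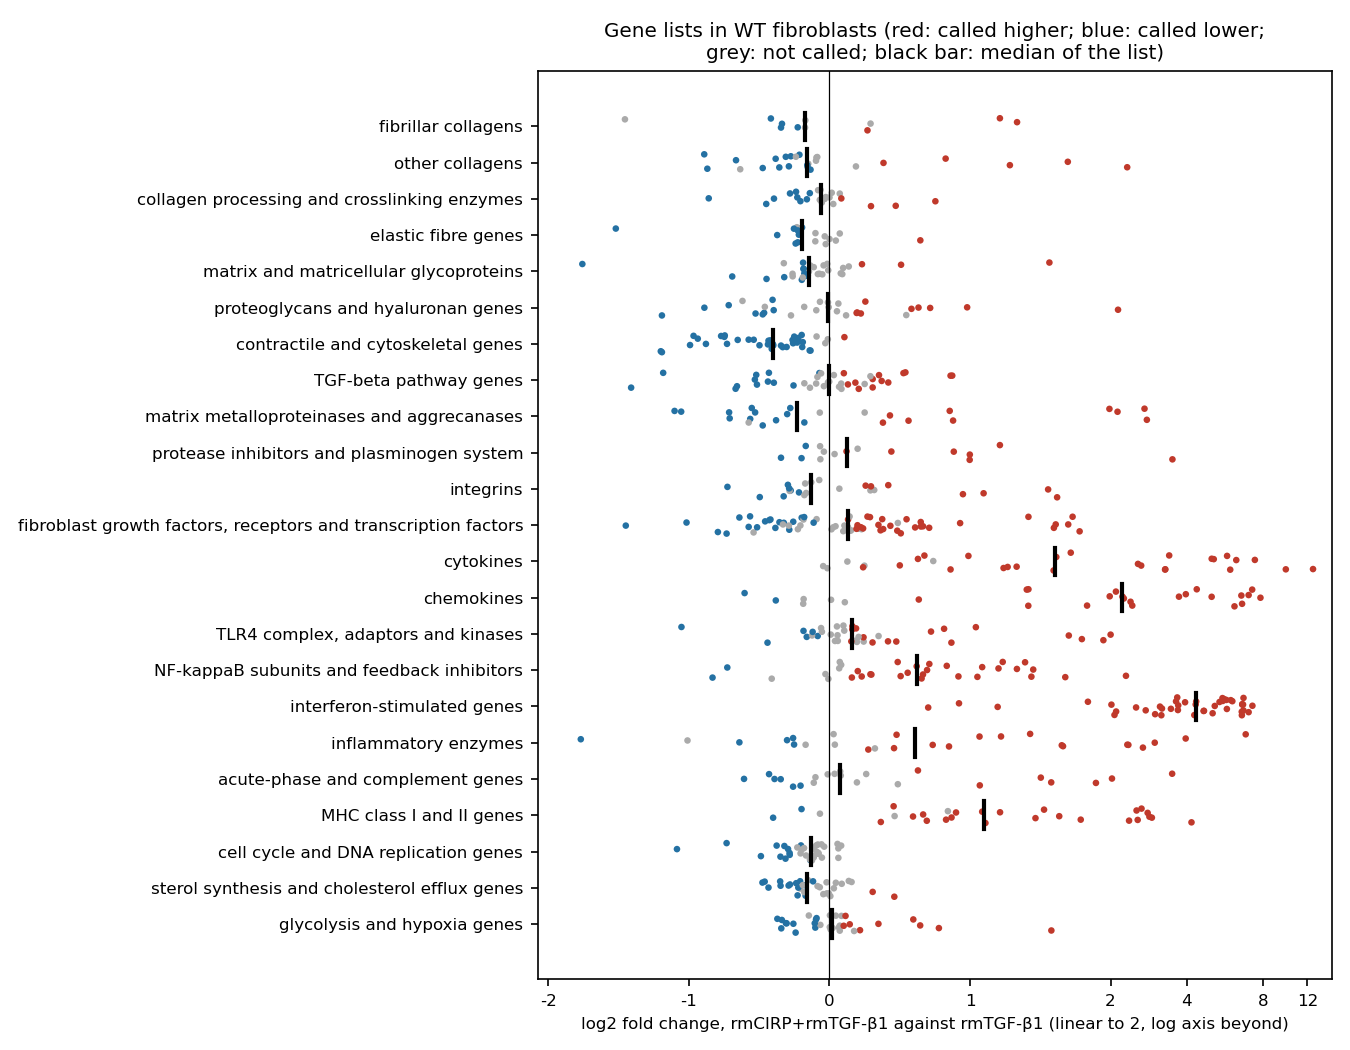
For each gene list, the points are the log2 fold changes of its tested members (rmCIRP plus rmTGF-β1 over rmTGF-β1 alone in WT cells) and the bar is the median. Interferon-stimulated genes lie wholly above 0 with a median of 4.36, and contractile genes lie almost wholly below 0 with a median of -0.40, while the median of all genes tested was -0.01.

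The contractile and cytoskeletal genes of the myofibroblast fell nearly as a whole. Of 39 members, all tested, 35 fell (against 21.7% of all genes), 1 rose and 3 did not pass the test, and the median log2 fold change was -0.40. In 36 of the 39, every library with rmCIRP lay below every library with rmTGF-β1 alone, which was so for 25.0% of all genes. The falls were moderate, between -0.13 in Tln1, encoding talin, and -1.20 in Myocd, the myocardin coactivator of smooth muscle genes. The marker most used for myofibroblasts, Acta2 (smooth muscle α-actin), went from 303591, 328287 and 308796 to 247464, 258190 and 244223 normalized counts, a log2 change of -0.33 (SE 0.10, adjusted p = 0.013). Cnn1, the smooth muscle calponin, went from 50393, 53108 and 51160 to 30406, 31574 and 30500, a log2 change of -0.75 (SE 0.13, adjusted p = 9.6e-05). Mylk, the kinase that phosphorylates myosin light chain to trigger contraction, went from 15985, 16739 and 16583 to 7892, 8746 and 8258, a log2 change of -0.99 (SE 0.17, adjusted p = 9.6e-05). The groups were apart for all 3 of these genes, and the fall in Mylk came to 1.99-fold. Lmod1, an actin nucleator of smooth muscle, fell, with a log2 change of -1.19 (SE 0.20, adjusted p = 5.4e-05). Myocd had few counts, 67.6, 42 and 63.4 against 16.3, 31.3 and 28.8, and gave -1.20 (SE 0.26, adjusted p = 8.6e-04).

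Other members fell as well. The regulatory light chain Myl9, tropomyosin Tpm1 and smooth muscle myosin Myh11 had log2 fold changes of -0.50 (adjusted p = 3.0e-04), -0.40 (adjusted p = 6.2e-04) and -0.40 (adjusted p = 0.0054). The focal adhesion protein gene Vcl (vinculin) fell, with -0.54 (SE 0.08, adjusted p = 2.8e-05), although over 25% of its exon bases are shared with another annotated gene. Srf, the serum response factor that with myocardin-family coactivators drives these genes, fell from 2937, 3389 and 2907 to 2275, 2418 and 2276 (log2 change -0.41, SE 0.09, adjusted p = 6.9e-04), and its coactivator Mrtfa gave -0.09 (adjusted p = 0.31). The exception that rose was the tropomyosin Tpm3, at 0.11 (SE 0.03, adjusted p = 0.0024). Tagln, encoding SM22α, gave -0.03 (adjusted p = 0.88), with overlapping libraries at 715, 876 and 900.1 and 711, 897 and 850.0. In mouse GENCODE M21, 67.9% of its exon bases lie opposite the antisense gene Gm48529, and as the strand setting of the counting is not stated, reads of both genes may not have been told apart.

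Contractile genes are known targets of SRF, whose motif is the CArG box. Promoters were available for 33 of the 39 members, and 7 (21.2%) held a CArG box in the window, against 1.81% of all promoters, while 8 (24.2%) held a κB motif. The SMAD element CAGAC, read on either strand, was in 20 (60.6%), against 53.2% of all promoters. The following stretches are shown because their genes are among those that fell, with the CArG box in capitals, 5′ to 3′ on the gene's strand.
Cnn2, chr10:79988524-79988573, plus strand: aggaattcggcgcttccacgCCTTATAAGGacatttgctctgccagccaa
Myl9, chr2:156775283-156775332, plus strand: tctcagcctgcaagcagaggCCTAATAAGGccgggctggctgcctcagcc
Vcl, chr14:20929151-20929200, plus strand: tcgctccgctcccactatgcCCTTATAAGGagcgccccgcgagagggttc
Srf, chr17:46556195-46556264, minus strand: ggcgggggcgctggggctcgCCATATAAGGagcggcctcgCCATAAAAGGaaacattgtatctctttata
In Vcl a κB match overlaps the CArG box. The Cnn2 gene, another calponin, fell, with a log2 change of -0.57 (SE 0.10, adjusted p = 9.1e-05). No CArG box was in the window of the fibrillar collagen promoters, of which 8 of 11 were available.

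Set beside rmTGF-β1 alone, which shares its libraries with the comparison, few contractile genes were called for rmTGF-β1 against PBS, in cultures separate from those given both. Of the 16258 genes, rmTGF-β1 against PBS called 12.4%, with 938 risen (5.77%) and 1081 fallen (6.65%), and in the contractile list 2 of 39 rose and 1 fell. Acta2 had a log2 fold change of 0.02 (adjusted p = 0.95) and Cnn1 of 0.09 (adjusted p = 0.76) for rmTGF-β1 against PBS. rmCIRP plus rmTGF-β1 against PBS called 53.4% of all genes (24.4% higher and 29.0% lower). There 33 of the 39 fell and 2 rose, with values of -0.31 (adjusted p = 0.014) for Acta2 and -0.66 (adjusted p = 2.3e-04) for Cnn1. Without rmTGF-β1 the list fell as well. rmCIRP alone against PBS called 43.9% of all genes (19.8% higher and 24.1% lower). In that contrast 33 of the 39 fell and 1 rose, with a median log2 change of -0.37.

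Collagen genes changed in both directions. Of the 11 fibrillar collagen genes, 3 rose (27.3%, against 20.5% of all genes) and 4 fell (36.4%, against 21.7%), with a median log2 fold change of -0.17. Nothing particular to this short list is read from these shares. Both type I collagen genes fell, Col1a1 from 272685, 290550 and 285473 to 228624, 221512 and 223857 normalized counts, a log2 change of -0.34 (SE 0.08, adjusted p = 0.002), and Col1a2 with -0.34 (SE 0.07, adjusted p = 6.8e-04). Col5a1, which starts fibril assembly, fell, with -0.42 (SE 0.07, adjusted p = 6.1e-05), and Col3a1 gave -0.17 (adjusted p = 0.29). The groups did not overlap for Col1a1. In contrast Col5a3, a minor chain of collagen V, rose from 8892, 9388 and 8972 to 24040, 22423 and 22519, a log2 change of 1.34 (SE 0.16, adjusted p = 9.3e-07), and Col27a1 rose by 1.21 (SE 0.12, adjusted p = 2.8e-08). Col2a1, the cartilage collagen, had the lowest value of the list, -1.45 (adjusted p = 0.59), and did not pass the test.

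Of the other collagens, 13 of 25 tested fell (52.0%, against 21.7% of all genes) and 5 rose, a share close to the 20.5% of all genes. The basement membrane chains Col4a1 and Col4a2 fell, with log2 changes of -0.15 (SE 0.05, adjusted p = 0.014) and -0.13 (SE 0.05, adjusted p = 0.047). The microfibrillar Col6a3 gave -0.66 (SE 0.06, adjusted p = 1.8e-08), and Col15a1, a collagen of vessel and muscle basement membranes, -0.89 (SE 0.09, adjusted p = 1.5e-07). The members that rose included the membrane-spanning collagens Col13a1, at 2.33 (SE 0.58, adjusted p = 0.0033), and Col23a1, at 1.70 (SE 0.24, adjusted p = 1.1e-05), as well as Col18a1, the source of endostatin, at 0.83 (SE 0.11, adjusted p = 2.3e-06). Enzymes that fold, trim and crosslink collagen fell in 9 of 23 (39.1%, against 21.7% of all genes) and rose in 4 (17.4%, against 20.5%), with a median log2 fold change of -0.06. Lox, the lysyl oxidase with the most counts in the list, stood at 85846, 91598 and 84749 and 83238, 93209 and 89697, a log2 fold change of 0.02 (adjusted p = 0.89). Its relatives Loxl1 and Loxl3 fell, with log2 changes of -0.45 (SE 0.08, adjusted p = 1.1e-04) and -0.86 (SE 0.08, adjusted p = 3.9e-08), and Adamts14, a procollagen N-propeptidase, rose by 0.75 (SE 0.10, adjusted p = 6.6e-06).

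**Figure D3:**
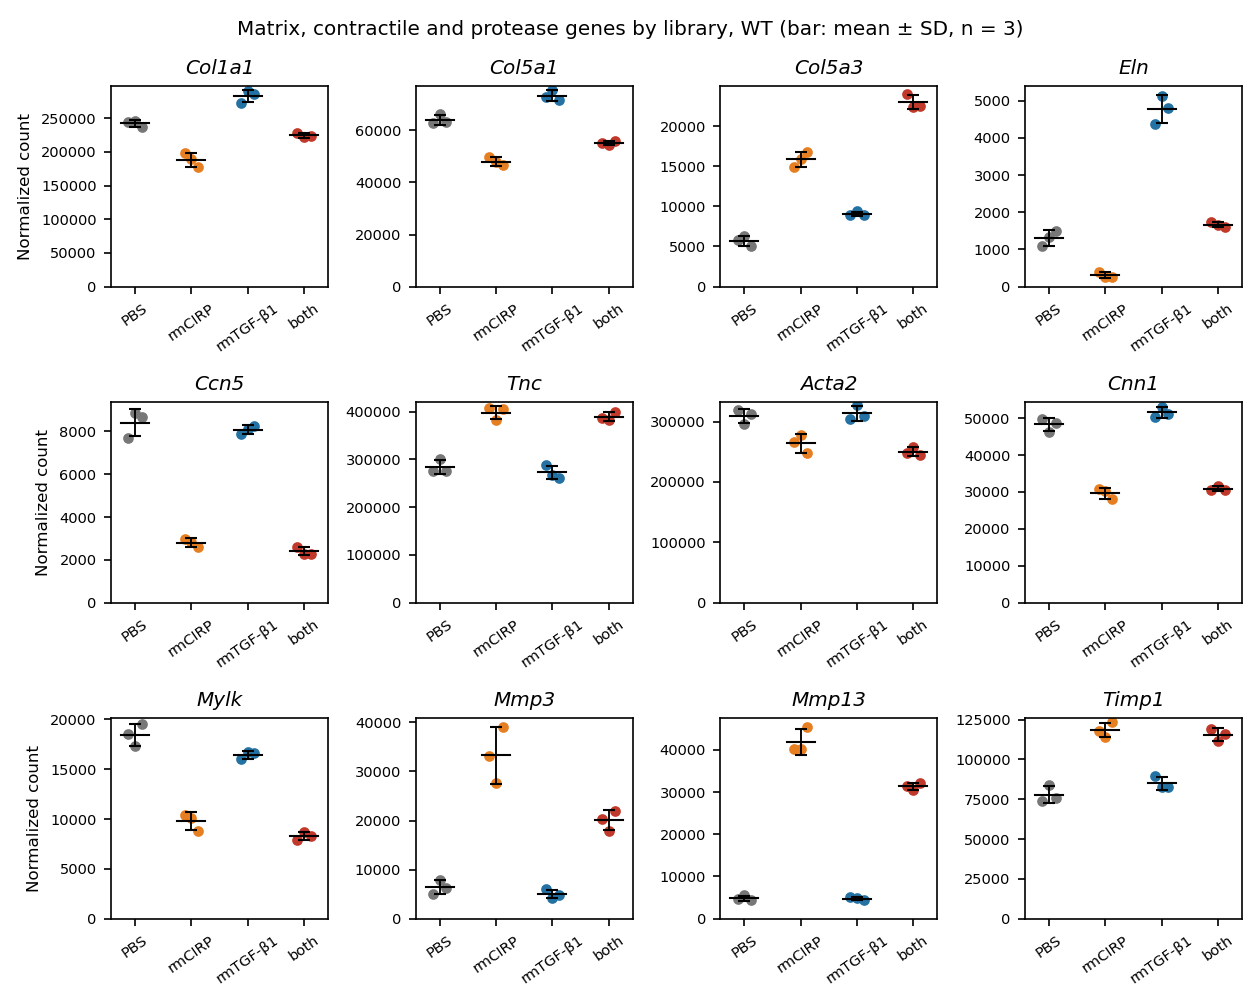
Normalized counts per library in WT cells under PBS, rmCIRP, rmTGF-β1 and both, for 12 matrix, contractile and protease genes, on linear axes from 0; points are libraries and bars the mean ± SD (n = 3). Eln lies at 4383 to 5134 under rmTGF-β1 and at 1599 to 1749 with rmCIRP added, and Cnn1 and Mylk are lower in every library with rmCIRP added than in every library with rmTGF-β1 alone.

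Elastin had the largest fall among the elastic fibre genes. Eln stood at 1306 ± 207 (SD, n = 3) normalized counts in PBS, at 4383, 5134 and 4811 under rmTGF-β1 and at 1749, 1665 and 1599 with rmCIRP added, a log2 change of -1.52 (SE 0.24, adjusted p = 2.6e-05). The groups with and without rmCIRP did not overlap. Against PBS, Eln rose by 1.87 (SE 0.24, adjusted p = 2.6e-05) under rmTGF-β1 alone and gave 0.35 (adjusted p = 0.25) under both, and rmCIRP alone gave -2.09 (SE 0.28, adjusted p = 4.1e-06). Of the 17 elastic fibre genes 8 fell (47.1%, against 21.7% of all genes) and 1 rose. Fbn1, encoding fibrillin-1, the scaffold of elastin, fell, with a log2 change of -0.19 (SE 0.05, adjusted p = 0.0047), and Fbln2 with -0.37 (SE 0.05, adjusted p = 8.0e-06). Emilin1, which sits at the elastin surface, rose by 0.65 (SE 0.05, adjusted p = 2.1e-09).

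Glycoproteins of the matrix fell in 10 of 31 members (32.3%, against 21.7% of all genes) and rose in 3 (9.68%, against 20.5%), and 18 did not pass the test. The share called in either direction was thus close to the 42.2% of all genes. Fn1, encoding fibronectin, stood at 252600, 253286 and 238355 and 230033, 239731 and 241059, a log2 fold change of -0.07 (adjusted p = 0.4). Thbs1, encoding thrombospondin-1, gave -0.04 (adjusted p = 0.61). Postn, encoding periostin, and Ccn2, encoding connective tissue growth factor, gave -0.18 (adjusted p = 0.048) and -0.18 (adjusted p = 0.0998), both near the threshold and lost under other settings. Ccn5, a relative of Ccn2 that lacks its C-terminal domain, fell furthest, from 7862, 8124 and 8257 to 2608, 2290 and 2294 normalized counts (log2 change -1.76, SE 0.15, adjusted p = 4.3e-09), with no overlap. Lama2, a laminin chain, fell, with -0.69 (SE 0.10, adjusted p = 1.8e-05), and Tnc, encoding tenascin-C, rose by 0.51 (SE 0.07, adjusted p = 1.1e-05).

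Proteoglycan and hyaluronan genes split, with 9 of 29 tested rising (31.0%, against 20.5% of all genes) and 8 falling (27.6%, against 21.7%). Tnfaip6, encoding TSG-6, which links hyaluronan to inter-α-inhibitor, rose from 106, 99 and 123 to 486, 500.2 and 474 (log2 change 2.14, SE 0.29, adjusted p = 5.8e-06). The hyaluronan synthases Has2 and Has3 rose by 0.26 (SE 0.07, adjusted p = 0.0037) and 0.98 (SE 0.32, adjusted p = 0.02), and the hyaluronan receptor Cd44 by 0.58 (SE 0.10, adjusted p = 5.2e-05). Cemip, which degrades hyaluronan, fell, with -0.89 (SE 0.17, adjusted p = 2.2e-04), and Acan, encoding aggrecan, with -1.19 (SE 0.07, adjusted p = 6.2e-12). The small proteoglycans Bgn and Dcn gave -0.07 (adjusted p = 0.32) and 0.22 (adjusted p = 0.0056), so that only Dcn of the pair passed the test.

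The components of the TGF-β pathway did not move as a group. Of 39 genes, 13 rose (33.3%, against 20.5% of all genes) and 12 fell (30.8%, against 21.7%), and the median log2 fold change was 0.00. Of the ligands, Tgfb1 rose by 0.53 (SE 0.08, adjusted p = 1.4e-05), Tgfb3 fell, with -1.18 (SE 0.13, adjusted p = 2.4e-07), and Inhba, encoding the subunit of activin A, rose by 0.87 (SE 0.16, adjusted p = 2.3e-04). Of the receptors, Tgfbr1 rose by 0.31 (SE 0.09, adjusted p = 0.012) and Tgfbr2 gave -0.01 (adjusted p = 0.9). The inhibitory Smad7, a direct target gene of the pathway, stood at 5777, 6281 and 5899 and 6056, 6630 and 6408, a log2 fold change of 0.08 (adjusted p = 0.18). The libraries of both groups overlapped for Smad7. Nox4, an oxidase that TGF-β induces in myofibroblasts, fell, with -0.52 (SE 0.14, adjusted p = 0.0067), and Id1, a target of the BMP branch, with -0.52 (SE 0.07, adjusted p = 1.1e-05). Nrros, which tethers latent TGF-β on myeloid cells, had the largest fall of the list, with -1.41 (SE 0.11, adjusted p = 6.7e-10).

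Matrix-degrading proteases rose in 9 and fell in 12 of 24 tested, against 20.5% and 21.7% of all genes. The collagenase Mmp13 rose from 5089, 4786 and 4308 to 31416, 30490 and 32073 normalized counts (log2 change 2.72, SE 0.23, adjusted p = 4.3e-09). The stromelysins Mmp3 and Mmp10 rose by 1.99 (SE 0.24, adjusted p = 7.7e-07) and 2.78 (SE 0.28, adjusted p = 7.5e-08), and the gelatinase Mmp9 by 2.13 (SE 0.10, adjusted p = 1.4e-13). Mmp14, the membrane protease that activates pro-MMP2, fell, with -0.47 (SE 0.08, adjusted p = 7.2e-05), as did the aggrecanases Adamts1, with -1.05 (SE 0.09, adjusted p = 5.5e-09), and Adamts5, with -0.71 (SE 0.17, adjusted p = 0.0027). Of the protease inhibitors and plasminogen genes, 7 of 15 tested rose (46.7%) and 3 fell. Timp1 rose by 0.44 (SE 0.07, adjusted p = 7.1e-05), Timp3 fell, with -0.20 (SE 0.07, adjusted p = 0.034), and the plasminogen activators Plau and Plat rose by 1.00 (SE 0.12, adjusted p = 1.3e-06) and 1.00 (SE 0.19, adjusted p = 2.2e-04). Serpinb2, encoding PAI-2, rose furthest, at 3.51 (SE 0.44, adjusted p = 1.4e-06).

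Of the integrins, 7 of 23 rose and 7 fell (30.4% each, against 20.5% and 21.7% of all genes), and nothing particular to the list is read from these shares. The collagen receptors parted, as Itga2 rose by 1.62 (SE 0.26, adjusted p = 3.5e-05) while Itga1 and Itga11 fell, with -0.73 (SE 0.12, adjusted p = 5.5e-05) and -0.28 (SE 0.12, adjusted p = 0.075). Itgav, whose product activates latent TGF-β, rose by 0.42 (SE 0.05, adjusted p = 4.3e-07). Among growth factors, their receptors and fibroblast transcription factors, 27 of 66 tested rose (40.9%, against 20.5% of all genes) and 19 fell (28.8%, against 21.7%). The epidermal growth factor receptor ligands Areg and Ereg rose by 1.60 (SE 0.38, adjusted p = 0.002) and 1.61 (SE 0.31, adjusted p = 2.8e-04), and Bmp2 and the IGF-binding Igfbp3 by 1.73 (SE 0.36, adjusted p = 6.4e-04) and 1.78 (SE 0.39, adjusted p = 0.001). Wnt4, Igf1 and the lung mesenchyme factor Tcf21 fell, with -1.45 (SE 0.31, adjusted p = 8.9e-04), -0.64 (SE 0.06, adjusted p = 1.7e-08) and -0.56 (SE 0.12, adjusted p = 5.7e-04).

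Of 36 cell cycle and replication genes, 12 fell (33.3%, against 21.7% of all genes), none rose and 24 did not pass the test, with E2f2, a factor of the G1/S switch, lowest at -1.08 (SE 0.20, adjusted p = 1.7e-04) and the cyclin Ccnd1 at -0.73 (SE 0.08, adjusted p = 1.1e-07). Sterol genes fell in 14 of 32 (43.8%, against 21.7% of all genes) and rose in 2 (6.25%, against 20.5%). Those that rose were the cholesterol exporters Abca1 and Abcg1, by 0.31 (SE 0.14, adjusted p = 0.096) and 0.46 (SE 0.13, adjusted p = 0.0066). Glycolysis and hypoxia genes rose in 9 of 32 (28.1%, against 20.5% of all genes) and fell in 11 (34.4%, against 21.7%). In that list Slc2a6, a lysosomal sugar transporter, rose furthest at 1.58 (SE 0.08, adjusted p = 5.6e-13).

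Among the genes that averaged 50 or more normalized counts and did not overlap between groups, the 15 largest falls were examined, while larger falls, down to -4.72 on the log2 scale, lay in genes of fewer counts. Rab3il1, an exchange factor for Rab GTPases, fell from 197, 209 and 224 to 35.7, 20.9 and 22.2 normalized counts, a log2 change of -2.98 (SE 0.20, adjusted p = 4.7e-11). The myeloid receptors Cd300lb and Cd300a had log2 fold changes of -2.27 (SE 0.17, adjusted p = 4.3e-10) and -2.23 (SE 0.21, adjusted p = 1.6e-08), and the checkpoint receptor Vsir of -1.66 (SE 0.06, adjusted p = 2.9e-15). By that choice the 3 rmCIRP plus rmTGF-β1 libraries were below every rmTGF-β1 library for each of the 15. The others were Gm41505, Plxdc1, Scel, Cobl, Alox5, Ccn5, Kcnk13, Slc37a2, Plcl1, Dhrs3 and Tent5b, with log2 fold changes between -1.65 in Tent5b and -1.97 in Gm41505.

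Marker genes were examined to see which cells the libraries held. Fibroblast markers had the highest sum, which was over 12 genes 881267 to 905483 normalized counts under rmTGF-β1 and 761072 to 776540 with rmCIRP. Of the 12 genes 1 rose and 5 fell, against 20.5% and 21.7% of all genes. Macrophage markers were present in every library, at 83525 to 95532 and 75284 to 84671 over 15 genes. Of the 15 genes 3 rose and 8 fell, against the same shares of all genes. Lyz2 (lysozyme), C1qa and Mrc1 fell, with -0.22 (SE 0.07, adjusted p = 0.019), -0.39 (SE 0.09, adjusted p = 0.0018) and -0.44 (SE 0.09, adjusted p = 6.3e-04), while Adgre1, encoding F4/80, rose by 1.06 (SE 0.08, adjusted p = 2.9e-10). Their part in the inflammatory and myeloid changes above was not tested. Smooth muscle and pericyte markers summed to 79540 to 86101 and 60724 to 63672 over 6 genes, of which 4 fell, against 21.7% of all genes. Myh11, Des and Actg2 among them are also in the contractile list, so this sum is not separate from that list. Of the rest, Notch3 fell, with -0.26 (SE 0.11, adjusted p = 0.063). Cspg4 and Rgs5 gave 0.19 (adjusted p = 0.13) and 0.14 (adjusted p = 0.45). The part of such cells in the fall of the contractile genes was not tested. Neutrophil markers were low, at 101 to 149 and 296 to 379 over 7 genes, with S100a9, Ly6g, Retnlg and Elane at 3 counts or fewer in all 6 libraries. Epithelial sums (46.5 to 61.0 and 24.4 to 37.7) and lymphocyte sums (10.4 to 20.3 over all 6 libraries) were low, with the surfactant genes Sftpc and Sftpb and the lymphocyte genes Cd3e, Cd3d and Ms4a1 at 3 counts or fewer. Endothelial markers summed to 589 to 849 and 648 to 767.

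To follow the genes that rmTGF-β1 itself moves, responders were taken from libraries that do not enter the comparison, namely rmTGF-β1 against PBS in the cells labelled TLR4-/-, with an adjusted p under 0.1 and a change of 1 log2 unit or more. A mean of at least 50 normalized counts over those libraries was also required, whereas the shares of all genes cover every count level tested. There were 63 risers and 37 fallers. In WT cells the 63 risers had a median log2 fold change of 0.82 for rmTGF-β1 against PBS. In that contrast 45 of them rose (against 5.77% of all genes), 1 fell and 17 did not pass the test. Among the 37 fallers, 32 fell there (against 6.65% of all genes) and 5 did not pass it. With rmCIRP added, 44 of the 63 rose (69.8%, against 20.5% of all genes) and 5 fell, with a median of 0.59. Of the 37 fallers, 16 rose with rmCIRP (43.2%, against 20.5% of all genes) and 11 fell (29.7%, against 21.7%), with a median of 0.18. For rmCIRP plus rmTGF-β1 against PBS, which shares libraries with both contrasts, the medians were 1.38 in the risers and -0.66 in the fallers. More risers thus moved with rmCIRP in the direction of their rmTGF-β1 response in the selecting libraries than against it. The fallers moved both ways, with more rising than falling.

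Among the risers, Cdh6, encoding cadherin-6, went from 225, 241 and 266 in PBS to 851, 975 and 902 under rmTGF-β1 and 1787, 2017 and 1850 with rmCIRP added, a log2 change of 1.05 (SE 0.15, adjusted p = 7.8e-06) for the last step. Jag1, a Notch ligand, went from 2015, 1774 and 1795 to 3954, 4498 and 4128 and 6360, 6671 and 6485, a log2 change of 0.63 (SE 0.13, adjusted p = 8.4e-04). The potassium channel gene Kcnh1 went from 52.9, 80.9 and 64.5 to 202, 221 and 196 and 640.3, 651 and 638, a log2 change of 1.64 (SE 0.20, adjusted p = 1.5e-06). For each, the libraries of all 3 conditions were apart and in the same order. The muscle gene Xirp2, Odaph and the chemokine receptor Cxcr6 rose by 1.63 (SE 0.45, adjusted p = 0.0068), 1.08 (SE 0.21, adjusted p = 3.3e-04) and 1.20 (SE 0.28, adjusted p = 0.0016). St8sia2 and Adgra1 rose by less, 0.34 (SE 0.15, adjusted p = 0.091) and 0.45 (SE 0.21, adjusted p = 0.099), and passed only narrowly. The 5 risers that fell were led by Eln, and the others were Col7a1, Rgs1, Rflnb and Gpr50. The Notch target Heyl and the RNA Bc1 gave -0.52 (adjusted p = 0.17) and -1.02 (adjusted p = 0.12).

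Fallers included inflammatory genes that rose with rmCIRP. The pentraxin Ptx3 went from 1238, 1858 and 1715 in PBS to 687, 555 and 595 under rmTGF-β1 and 1678, 1712 and 1836 with rmCIRP added, a log2 change of 1.50 (SE 0.17, adjusted p = 5.2e-07). The epithelial-type cytokine gene Tslp rose by 1.61 (SE 0.23, adjusted p = 8.7e-06), Cxcl5, a neutrophil chemokine, by 2.44 (SE 0.25, adjusted p = 7.3e-08), and Dio2, which activates thyroid hormone, by 0.94 (SE 0.33, adjusted p = 0.03). In contrast Inhbb, encoding an activin subunit, fell further, from 266, 266 and 265 to 103, 74.3 and 111 (log2 change -1.47, SE 0.22, adjusted p = 1.7e-05), as did Sorbs2, with -0.77 (SE 0.15, adjusted p = 3.4e-04). Adm, the vasodilator adrenomedullin, stood at 5238, 5512 and 5963 in PBS, 2274, 1930 and 2284 under rmTGF-β1 and 2432, 2498 and 2427 under both, and its log2 fold change with rmCIRP was 0.18 (adjusted p = 0.32). Gas1, a growth-arrest gene, rose by 0.76 (SE 0.23, adjusted p = 0.014).

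**Figure D4:**
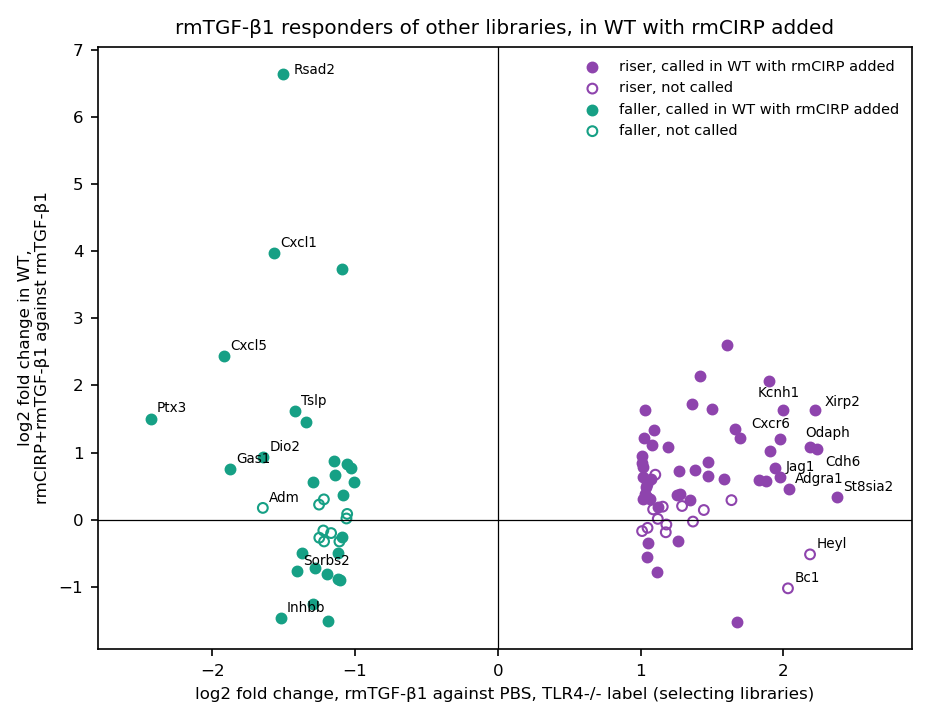
Each point is a gene that responded to rmTGF-β1 in the cells labelled TLR4-/-, with its log2 fold change for rmTGF-β1 against PBS there on the horizontal axis and its log2 fold change for rmCIRP plus rmTGF-β1 over rmTGF-β1 alone in WT cells on the vertical axis. Most of the 63 risers on the right lie above 0, with a median of 0.59, and the 37 fallers on the left lie on both sides, with a median of 0.18.

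To determine whether rmTGF-β1 altered the response to rmCIRP, the response in its presence was tested against the response without it (rmCIRP against PBS), which rests on other libraries. The difference between the responses passed the test in 8 of 16258 genes (0.0492%), of which 6 (0.0369%) had the higher and 2 (0.0123%) the lower value under rmTGF-β1, while 917 genes reached an unadjusted p under 0.05. The count depended on the settings, as it was 198 without the low-count filter, 125 when the fit held only these 12 libraries, 37 with DESeq2 and 2 to 7 when 1 library was left out. Without rmTGF-β1, rmCIRP called 43.9% of genes, 19.8% higher and 24.1% lower. The matrix proteases Mmp9 and Mmp8 were among the 8. Mmp9 rose by 1.09 on the log2 scale without rmTGF-β1, from 1295, 1692 and 1537 to 3128, 3202 and 3309 normalized counts. With rmTGF-β1 it rose by 2.13, from 1355, 986 and 1259 to 5284, 4984 and 5564, a difference of 1.04 (SE 0.14, adjusted p = 0.0023). Mmp8, the neutrophil collagenase, rose by 0.95 without and 0.38 with rmTGF-β1, a difference of -0.57 (SE 0.10, adjusted p = 0.038). In Mmp9 the larger response was thus the one under rmTGF-β1, and in Mmp8 the one without it.

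Cadm1, a cell adhesion molecule, fell without rmTGF-β1, from 62.6, 44.9 and 53.1 to 34, 50.4 and 33.6 normalized counts, a log2 fold change of -0.45 (adjusted p = 0.091). With rmTGF-β1 it rose, from 63.5, 76 and 74.4 to 183, 157 and 144, and the difference was 1.62 (SE 0.26, adjusted p = 0.014). The scaffold gene Iqgap2 gave 0.04 (adjusted p = 0.76) without and 0.88 (adjusted p = 8.0e-08) with rmTGF-β1, a difference of 0.83 (SE 0.13, adjusted p = 0.014). In the remaining genes the differences were 0.37 (SE 0.07, adjusted p = 0.057) in the GTPase-activating protein gene Arhgap29, 0.76 (SE 0.14, adjusted p = 0.068) in the adhesion gene Iglon5, 0.57 (SE 0.11, adjusted p = 0.094) in the zinc and manganese transporter Slc39a8 and -0.42 (SE 0.08, adjusted p = 0.094) in the NOD-pathway kinase Ripk2. Among matrix and contractile genes, the difference did not pass the test in Eln or Acta2. For Eln the responses were -2.09 without and -1.52 with rmTGF-β1, and the difference was 0.57 (adjusted p = 0.94). For Acta2 they were -0.23 and -0.33, and the difference was -0.10 (adjusted p = 0.99). A p above the threshold does not show that the responses were alike.

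**Figure D5:**
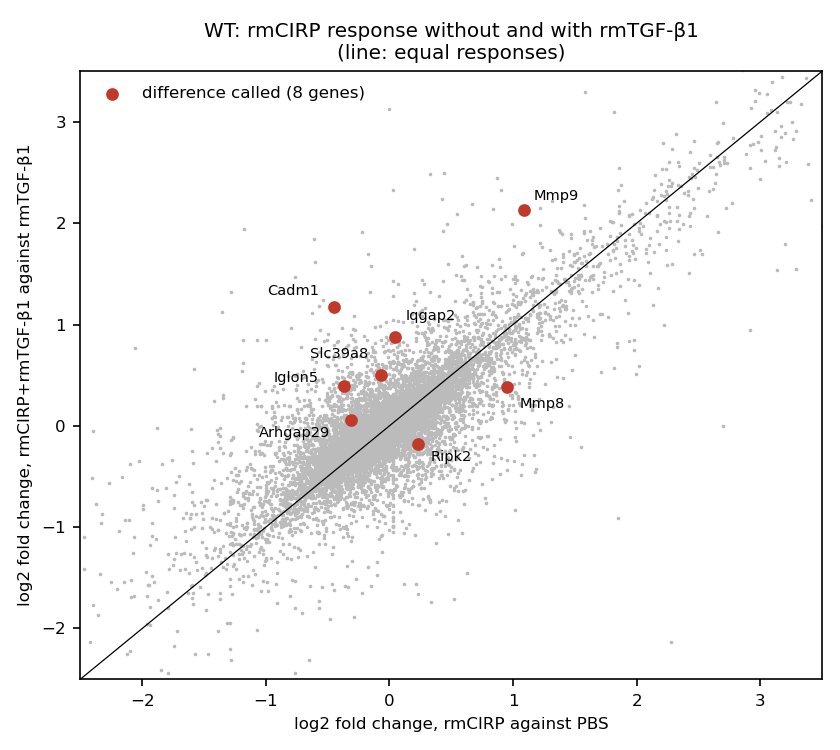
Each point is a gene, with the log2 fold change for rmCIRP against PBS on the horizontal axis and for rmCIRP plus rmTGF-β1 over rmTGF-β1 alone on the vertical axis, in WT cells, with the diagonal marking equal responses; 177 genes lie outside the range drawn. The 8 named genes are those whose responses differed, with Mmp9 and Cadm1 above the diagonal and Mmp8 and Ripk2 below it.

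In the cells labelled TLR4-/-, rmCIRP plus rmTGF-β1 against rmTGF-β1 called 437 of 16258 genes (2.69%), 254 higher (1.56%) and 183 lower (1.13%). This count rested on single libraries. It was 1 without replicate 3 of rmCIRP plus rmTGF-β1 and 0 without replicate 1 of rmTGF-β1 (edgeR, where 1375 and 1701 genes reached an unadjusted p under 0.05), and 79, 738, 2141 and 2674 without each of the others. The label was not borne out by the Tlr4 count, which was 701.6 to 880.7 in these 6 libraries against 629.7 to 704.5 in the 6 WT libraries, and their macrophage marker sum was 349996 to 437553 against 75284 to 95532 in the 6 WT libraries. The part of the macrophage markers in the differences that follow was not tested. Whether the transcript counted is intact was not tested. As the fibroblasts of each genotype were isolated from pooled lungs, the label and the lung pool cannot be told apart. The response differed between the libraries labelled TLR4-/- and WT in 3390 genes (20.9%), of which 1700 (10.5%) had the higher and 1690 (10.4%) the lower value in the former. Il1b stood at 90.9, 74.4 and 127 and 66.1, 112 and 73.1 in these libraries, a log2 fold change of -0.22 (adjusted p = 0.56), and its response differed from that in WT by -10.08 (SE 0.28, adjusted p = 1.6e-16). Matrix and contractile genes gave smaller differences. Eln stood at 2101, 1338 and 1130 under rmTGF-β1 and 1134, 846 and 353 with rmCIRP added, a log2 change of -0.97 (adjusted p = 0.075), and Acta2 at 248297, 248723 and 201059 and 213816, 198599 and 139288, a log2 change of -0.34 (adjusted p = 0.098). Both passed the test, but the groups overlapped, and replicate 3 with rmCIRP was the lowest for both. Without that library they gave -0.63 (adjusted p = 0.28) and -0.18 (adjusted p = 0.46), and both also failed the test without replicate 1 or 2 of rmTGF-β1. The differences from WT were 0.55 (adjusted p = 0.32) and -0.01 (adjusted p = 0.97). Cnn1 gave -0.36 (adjusted p = 0.15) there, with a difference from WT of 0.38 (adjusted p = 0.17). Col5a3 gave 0.23 (adjusted p = 0.47) there, and its difference from WT, -1.10 (adjusted p = 0.0013), passed the test. Of the 39 contractile genes, 7 fell in the libraries labelled TLR4-/- (against 1.13% of all genes), with a median log2 change of -0.25. That count was 0 to 30 when 1 library was left out. The difference from WT passed the test in 7 of the 39 (against 20.9% of all genes). In 6 the value was higher under that label (against 10.5% of all genes). Nothing particular to the list is read from the count of differences. None of the 43 interferon-stimulated genes passed edgeR's test in these libraries, with 7 at an unadjusted p under 0.05, and DESeq2 called 2. Their median log2 change was -0.44, and rmTGF-β1 replicate 2 held the highest of the 3 rmTGF-β1 values in 40 of them, as in Ifit3, at 108, 484 and 60.3 under rmTGF-β1 and 62.1, 73.9 and 85.5 with rmCIRP. Without that library the median was -0.01, whereas 11 of the genes fell without rmTGF-β1 replicate 3 and 3 fell without rmCIRP plus rmTGF-β1 replicate 1. In the fit of all libraries, the difference from WT passed the test in all 43, with a median of -4.64.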

How the data were processed

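Cell lysates were sequenced on a NextSeq 550 from Illumina TruSeq Stranded Total RNA libraries. Per the labels and the methods, reads were checked with FastQC, aligned with STAR to the mouse GENCODE genome and counted per gene with HTSeq. The deposited values are raw read counts per gene symbol, 1 file per library, made by the authors with no normalization, and the strand setting and annotation release are not given in the sources used here. Each file held 55291 gene names and 5 tally lines of unassigned reads, which were left out (14.5 to 16.1% of reads in each WT library).

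Counts of all 24 libraries were fitted with edgeR 4.0.16 (R 4.3.3) as 8 conditions of 3 libraries, with TMM scaling, the filterByExpr filter and the quasi-likelihood F-test. Benjamini-Hochberg adjustment covered 16258 genes, with a threshold of 0.1, and an SE was obtained from each F statistic and its log2 fold change. An exact permutation test of 3 against 3 libraries cannot go below 0.1. For the per-library values, counts were divided by median-of-ratios size factors. The fit was tested on simulated data. Alternatives were DESeq2 1.42.0, other scalings and filters, a replicate block, a fit of the compared libraries alone and leaving out each library.

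Named were the 15 largest rises and falls that averaged 50 or more normalized counts and did not overlap between groups, the extremes of each gene list and a set of anchor genes, the genes whose responses differed, and the 10 largest risers and fallers under rmTGF-β1 in the libraries labelled TLR4-/-. Other list members serve as examples picked after their values were seen. The comparison, lists and rules were chosen with earlier results of these data known. Some genes are not reported here.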

Additional observations from a re-analysis of the deposited data

Results flagged for a closer look

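The response to rmCIRP differed with and without rmTGF-β1, by the interaction test in WT cells, in 8 genes. The difference, as the log2 response with rmTGF-β1 minus that without it, was 1.62 in Cadm1, 1.04 in Mmp9, 0.835 in Iqgap2, 0.758 in Iglon5, 0.572 in Slc39a8 and 0.366 in Arhgap29. It was -0.573 in Mmp8 and -0.418 in Ripk2. The differences in Mmp9 and Iqgap2 passed the test whichever library was left out, whereas those of the other 6 genes failed it without at least 1 of the libraries.

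The response to rmCIRP under rmTGF-β1 differed between the libraries labelled TLR4-/- and WT, by a test of the difference, in 3390 genes. The Tlr4 counts of the libraries with that label were not below those of WT, and their macrophage marker sums were higher, and the part of either in the difference was not tested. The label and the lung pool cannot be told apart there.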

How the results depend on the processing

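The number of genes changed by adding rmCIRP to rmTGF-β1 in WT cells, 6859, stayed between 5858 and 7524 over all alternatives. It was 6854 with DESeq2 size factors in edgeR, 6991 with library totals, 6235 with DESeq2, 6039 when low counts were kept and 5858 to 6287 when a library was left out. With library totals 2846 rose and 4145 fell. Replicate numbers did not pair the libraries, as the correlations of deviations within the pairs were 0.026, 0.0454 and 0.0118, and a replicate block gave 6888 genes.

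The 8 genes whose response differed with rmTGF-β1 became 198 without the filter, 125 with only the libraries compared, 37 with DESeq2 and 11 with the replicate block, and all 8 were among each of these. Leaving out a library gave 2 (WT rmCIRP replicate 3) to 7 genes. For rmTGF-β1 against PBS the 2019 genes became 1029 without WT rmTGF-β1 replicate 2 and 1253 without WT PBS replicate 3, in a range of 1029 to 1690, and library totals moved the split from 938 higher and 1081 lower to 781 and 1400. For the difference between the TLR4-/- label and WT, library totals gave 2321 higher and 1375 lower in place of 1700 and 1690.

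Alternatives for rmCIRP plus rmTGF-β1 against rmTGF-β1 in the libraries labelled TLR4-/- were chosen after seeing the data. The 437 genes became 1580 when low counts were kept, 810 with the replicate block, 902 with DESeq2 and 0 in edgeR with only the 6 libraries compared, where 972 genes had an unadjusted p under 0.05. Leaving out a library gave 0 (rmTGF-β1 replicate 1) to 2674 genes (rmCIRP plus rmTGF-β1 replicate 1), so the genes called there are not stable. There Col5a3 lay between -0.0153 and 0.524 and Il1b between -0.509 and 0.0248 when a library was left out.

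Of 1854 alternatives for 143 named genes, 1775 kept direction and call, 42 lost the call, 26 gained it and 11 changed sign. The sign changes were in genes that did not pass the test. Lox went to -0.0111 with library totals and lay between -0.0225 and 0.0643 when a library was left out. Csf1 went to 0.00508 with a minimum mean count of 10 and lay between -0.0519 and 0.0213. Tnfsf13b lay between -0.188 and 0.144, and Tagln between -0.128 and 0.0697. Falls in Ccn2, Postn, Adamts15 and Tlr5 and rises in St8sia2, Adgra1 and Dio2 lost the call under at least 1 alternative. Low counts limit genes such as Myocd and Thbs4.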
